A study of Mus musculus with 6 samples.

Results

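The transcription factor gene Atf4 and 9 genes of the amino acid stress response that it is known to drive were followed across 6 RNA-seq libraries of tumour-associated dendritic cells. The genes were taken by symbol from the deposited expression table, and all 10 were found among its 27634 genes. They are Atf4 and the related factor gene Ddit3, the feedback and stress effector genes Trib3, Ddit4 and Chac1, the amino acid synthesis genes Asns, Phgdh and Psat1, and the transport genes Slc7a11 and Slc3a2. The cells came from C57BL/6 mice carrying ID8-Defb29/Vegf-a, a mouse ovarian tumour line that makes beta-defensin 29 and VEGF-A. All mice received 100 µg of siRNA in rhodamine-labelled polyethylenimine nanocomplexes between days 32 and 38. The siRNA was non-targeting (NT) or directed at Satb1, a gene of a chromatin organiser. The labels name 2 experiments by their efficiency of silencing, high with 2 libraries per siRNA and low with 1 library per siRNA. No label gives the number or pooling of the mice, the sort of the cells or the age of the animals.

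ATF4 belongs to the integrated stress response. Kinases that sense missing amino acids, misfolded protein in the endoplasmic reticulum, double-stranded RNA or lack of haem phosphorylate the translation factor eIF2, which lowers translation in general and lets ribosomes reach the ATF4 reading frame. ATF4 then switches on genes for amino acid uptake, amino acid synthesis and tRNA charging, and, when stress lasts, genes that stop growth or favour cell death. Much of this control acts on translation, so an Atf4 mRNA level is not a level of ATF4 protein. In phagocytes the cystine carrier encoded by Slc7a11 also feeds glutathione synthesis and answers to the oxidative stress factor NRF2.

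ATF4 binds composite sites with a C/EBP partner, and such sites were looked for near the start of each gene because they are the sequence these genes are known to share. The letters searched were TGATGNAA, where N is any base, on both strands, in windows from 250 bases before to 50 bases after the start site in RefSeq's promoter table of GRCm38.p6. All 10 genes were matched in that table. A match was found for 4 of the 10 genes, while 4.51% of 27025 genes in the table held one. The 4 stretches of 30 bases are shown 5′ to 3′ on the gene's own strand, with the match in capitals.
Slc7a11: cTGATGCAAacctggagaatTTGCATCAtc
Asns: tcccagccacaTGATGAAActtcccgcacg
Chac1: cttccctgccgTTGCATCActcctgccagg
Trib3: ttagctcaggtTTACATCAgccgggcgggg
The Slc7a11 stretch lies at chr3:50443651-50443680 on the minus strand, at -67 to -38 from the start site, and holds 2 matches that face each other. The Asns stretch is at chr6:7693214-7693243 on the minus strand, at -34 to -5. The Chac1 stretch is at chr2:119351038-119351067 on the plus strand, at -204 to -175. The Trib3 stretch is at chr2:152344028-152344057 on the minus strand, at 4 to 33 after the start. In Chac1 and Trib3 the match is on the opposite strand. Atf4, Ddit3, Ddit4, Phgdh, Psat1 and Slc3a2 held no match in these windows. With no free base, as TGATGCAA, the count was 2 of 10 genes (Slc7a11 and Chac1), against 1.03% of genes. Among further genes known as ATF4 targets 7 of 26 in the table held TGATGNAA, and among cytosolic tRNA synthetase genes 5 of 13, while 0 of 8 NRF2 target genes did. These are matches of letters, and no binding was measured.

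Summed counts per library ran from 24553454 to 71272720. The repeats of the high experiment were nearly as alike as counting noise allows, with a chi-square per gene of 1.202 for NT and 1.37 for Satb1 siRNA where noise alone gives about 1. They were therefore counted as 1 sample per group in any statement on the conditions. The edgeR fits of the high experiment use the 4 libraries, 2 per group, so every SE and p from them is about libraries and not about conditions. Satb1 fell in the high experiment, from 1233 and 1193 counts to 184 and 200 (log2 fold change -2.25, SE 0.072, edgeR adjusted p = 1.74e-39). In the low experiment it had 170 counts with NT and 165 with Satb1 siRNA, a ratio of 0.836 whose counting interval of 0.67 to 1.04 includes 1. That ratio, with TMM scaling, is a log2 value of -0.26. With library size alone it was 0.095, where the median of all genes was 0.289, and on the log2(FPKM + 0.1) scale it was 0.078. The sign thus depended on the scaling. None of the 10 dendritic cell markers was at 0, but their summed level was 197 to 371 CPM in the high libraries against 8817 and 8562 CPM in the low ones. CPM are counts scaled to the library total times its TMM factor. Cd74 and H2-Ab1 carried most of that sum. Cd74 had 76.1 to 155 CPM in the high libraries and 6810.5 and 6386 CPM in the low ones. H2-Ab1 had 95.3 to 177 CPM in the high libraries and 1704.5 and 1632 CPM in the low ones. With NT siRNA all 10 markers were past 1.5-fold higher in the low experiment, as were 37.6% of all genes. With library size alone 9 markers were, and 22.3% of genes. The 9 macrophage markers summed to 3586 to 6440 CPM in all. The high libraries thus hold little message of genes such as Flt3 (0.875 and 1.05 CPM in the high NT libraries, 16.4 CPM in the low one).

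Measured per transcript length, as the FPKM values that the authors deposited, the 10 genes spanned 2 orders of magnitude in level. With NT siRNA in the high experiment Atf4 was the most abundant, at 191 and 191 FPKM, and Slc3a2, the heavy chain shared by several amino acid carriers, came next at 133 and 134 FPKM. Slc7a11 (56.8 and 57.2 FPKM) and Ddit3 (53.7 and 53.5 FPKM) followed. Psat1 stood at 21.6 and 21.6, Asns at 16.2 and 15.3, Phgdh at 8.89 and 9.33 and Ddit4 at 7.79 and 8.26 FPKM. Trib3 (6.84 and 6.55 FPKM) and Chac1 (2.39 and 1.83 FPKM) were lowest. The repeats of neighbours in this order did not overlap. The order was the same in all 4 high libraries. In the low experiment Slc3a2 led at 320.4 and 336.3 FPKM, ahead of Atf4 at 145 and 178 FPKM. Slc7a11 held rank 4 in the low NT library, at 14.8 FPKM, and rank 7 in the low Satb1 siRNA library, at 6.53 FPKM.

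**Figure D1:**
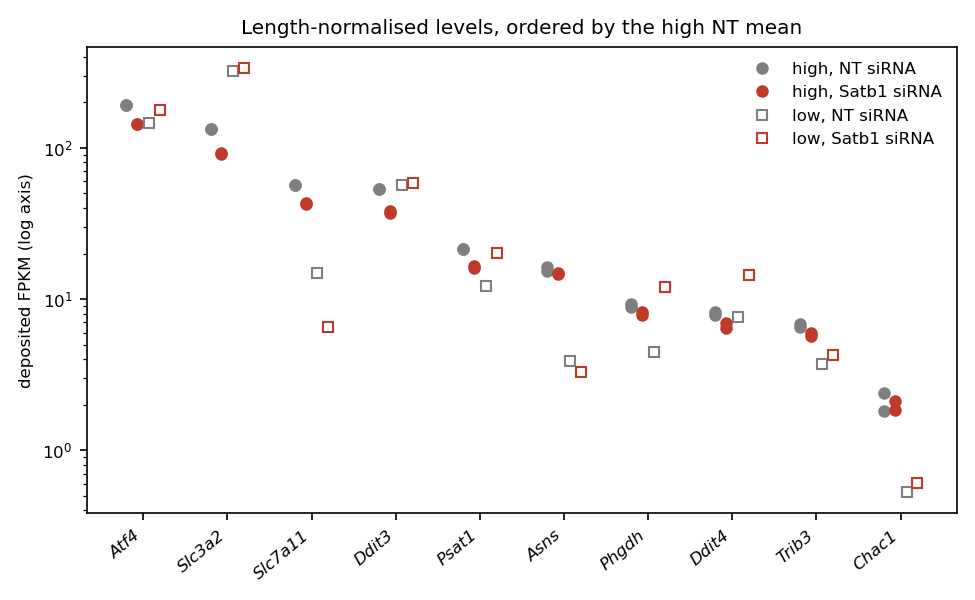
Deposited FPKM of the 10 genes (log axis) in each library, ordered by the mean of the high NT libraries, with circles for the high and open squares for the low experiment, grey for NT and red for Satb1 siRNA. Atf4 and Slc3a2 lie above 90 FPKM in every library, while Slc7a11 runs from 57.2 down to 6.53 FPKM.

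In the high experiment 9 of the 10 genes were called lower with Satb1 siRNA and none higher, in edgeR's quasi-likelihood test at an adjusted p under 0.05. The share of all tested genes called lower by the same rule was 33.2%, with 32.8% called higher and 66.0% in either direction. The median log2 fold change of the 10 genes was -0.40, with a range of -0.72 to -0.14, against 0.011 for all 20242 genes tested. The falls were moderate. Slc7a11 and Slc3a2 were past 1.5-fold lower and no gene of the list past it higher, sizes reached by 6.15% and 5.22% of the 14494 genes whose mean log2 CPM was at least 0. With library size alone 1 gene, Slc7a11, was past it lower, as were 4.82% of those genes, and in FPKM none was. Scaled by library size alone, all 10 log2 values stayed below 0. Markers of other cells moved in these libraries too. The summed dendritic cell markers were 371 and 369 CPM with NT and 206 and 197 CPM with Satb1 siRNA (5 of 10 called lower, 5 higher). Most of that sum was Cd74 (155 and 153 against 81.4 and 76.1 CPM) and H2-Ab1 (177 and 176 against 96.9 and 95.3 CPM). The plasma cell markers summed to 255 and 255 against 188 and 187 CPM (3 of 4 lower). In the B cell list 4 of 6 markers rose (16.8 and 16.5 against 31.0 and 29.4 CPM summed), as did 4 of 6 T cell markers (38.8 and 36.9 against 49.6 and 49.5 CPM). Of 9 macrophage markers 6 rose and 2 fell (3592 and 3586 against 3904 and 3897 CPM summed), and of 5 neutrophil markers 3 rose and 1 fell (64.5 and 64.1 against 73.7 and 73.9 CPM). Their part in the falls of the 10 genes was not tested. In bulk RNA, fewer cells of a type cannot be told apart from less RNA per cell.

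Levels below are in CPM after TMM scaling over the 6 libraries. Atf4 itself stood at 304 and 303 CPM with NT siRNA, and with Satb1 siRNA its level was 218 and 218 CPM. Both Satb1 siRNA libraries were lower, and the groups did not overlap. That is a log2 fold change of -0.47 (SE 0.0117, edgeR adjusted p = 5.88e-48). Ddit3, which encodes the death-promoting factor CHOP, went from 41.6 and 41.5 to 28.5 and 27.6 CPM, a log2 fold change of -0.56 (SE 0.0317, edgeR adjusted p = 3.24e-26). Ddit3 thus stood at 0.677 of its NT level, close to the 0.722 of Atf4, and its groups did not overlap either. How many of all genes lacked overlap was not counted, here and below. Of all genes tested 66.0% were called in either direction.

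The feedback and effector genes had smaller differences. Trib3 encodes a pseudokinase that restrains ATF4 and CHOP, and its levels were 12.9 and 12.4 CPM with NT against 10.4 and 10.9 CPM with Satb1 siRNA. Its log2 fold change was -0.24 (SE 0.0551, edgeR adjusted p = 9.60e-05). Ddit4, whose product REDD1 holds down the growth kinase mTORC1, went from 12.1 and 12.8 to 9.61 and 10.3 CPM, a log2 fold change of -0.32 (SE 0.0569, edgeR adjusted p = 1.00e-06). The Trib3 and Ddit4 groups did not overlap. Chac1, which encodes a glutathione-degrading enzyme, was the gene not called. It had 3.49 and 2.70 CPM with NT and 2.92 and 2.56 CPM with Satb1 siRNA, so that the groups overlapped (log2 fold change -0.17, SE 0.116, edgeR adjusted p = 0.202). Without NT replicate 1 its value was 0.017 and without NT replicate 2 it was -0.35 and called (edgeR adjusted p = 0.0184), so a NT library decides it.

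Among the synthesis genes Psat1 fell most. Psat1 encodes the aminotransferase of the serine pathway, and its level went from 41.5 and 41.8 to 30.4 and 29.3 CPM (log2 fold change -0.47, SE 0.0314, edgeR adjusted p = 1.77e-22). Phgdh, the gene of the enzyme that opens the same pathway, went from 15.4 and 16.2 to 13.6 and 12.7 CPM (log2 fold change -0.26, SE 0.0497, edgeR adjusted p = 4.29e-06). Asns, which encodes asparagine synthetase and is the textbook ATF4 target, had the smallest called difference, from 29.0 and 27.4 to 25.6 and 25.3 CPM (log2 fold change -0.14, SE 0.0359, edgeR adjusted p = 4.28e-04). None of the 3 genes overlapped between the groups, and Asns kept 0.906 of its NT level against 0.72 for Psat1.

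The transport genes had the largest falls of the list in counts, though not both in FPKM. Slc7a11, the light chain that exchanges cystine for glutamate, went from 378 and 382 to 231 and 228 CPM (log2 fold change -0.72, SE 0.0102, edgeR adjusted p = 2.70e-62). Slc3a2, the heavy chain that carries it to the cell surface, went from 293 and 297 to 194 and 191 CPM (log2 fold change -0.61, SE 0.0128, edgeR adjusted p = 2.44e-51). The subunits of this carrier were therefore lower side by side, at 0.606 and 0.654 of their NT levels. Of all tested genes 6.96% had a lower log2 fold change than Slc7a11. In the deposited FPKM values the Slc7a11 difference was smaller, -0.40 on the log2(FPKM + 0.1) scale, behind Slc3a2 (-0.53), Ddit3 (-0.51), Atf4 (-0.41) and Psat1 (-0.41).

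**Figure D2:**
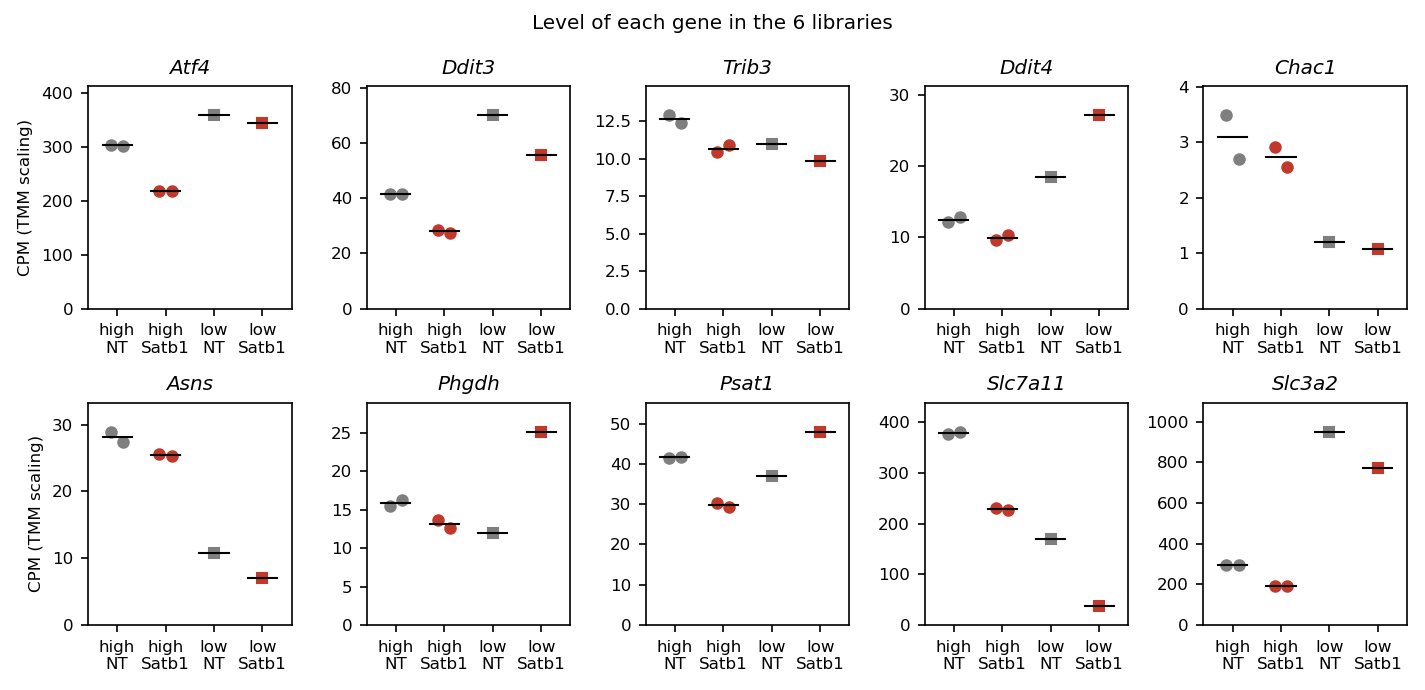
CPM after TMM scaling of each gene in the 6 libraries (linear axes from 0), with circles for the high and squares for the low experiment, grey for NT and red for Satb1 siRNA; black bars mark group means. Red circles lie below grey ones for 9 genes, Chac1 excepted, while the red square of Phgdh, Psat1 and Ddit4 lies above the grey square.

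Over both experiments together 1 tool called no shared shift and the other a shift of 1 gene. When the repeats were summed to 1 library per group and the experiment was a term of the fit, a design added after the data were seen, edgeR called 0 of the 10 genes (3 at an unadjusted p under 0.05). DESeq2 called 1 of 10 in that design, Slc7a11. All genes called lower there were 0.0315% of those tested in edgeR and 0.635% in DESeq2.

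The low experiment had 1 library per siRNA and no test, and its ratios carry a 95% counting interval only. Slc7a11 and Asns were past 1.5-fold lower and Phgdh past 1.5-fold higher, where 11.6% of 12977 genes at the same level minimum were past it lower, 14.2% higher and 25.8% either way. With library size alone 1 was past it lower, Slc7a11, and 3 higher, Phgdh, Ddit4 and Psat1. In that scaling 4.02% of the same genes were past it lower and 27.1% higher. The 10 genes had a median log2 ratio of -0.16, against -0.065 for all those genes, and ranged from -2.15 to 1.07. The spread among them was thus wider than in the high experiment, and 3 lay above 0. All genes spread more widely too, with 25.8% past 1.5-fold either way against 11.4% in the high experiment.

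Slc7a11 had the widest difference in counts, with 3248 counts (169.8 CPM) in the NT library and 849 counts (38.2 CPM) in the Satb1 siRNA library. The ratio was 0.225 (counting interval 0.208 to 0.243), and 0.301% of genes had a lower one. On the log2(FPKM + 0.1) scale Slc7a11 was at -1.17, and Phgdh, at 1.41, was farther from 0. Its partner Slc3a2 did not share this size, at 952 and 774 CPM, a ratio of 0.813 (0.796 to 0.83). Asns stood at 10.8 and 7.11 CPM, a ratio of 0.658 (0.531 to 0.812) resting on 207 and 158 counts.

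Serine synthesis genes lay on the other side. Phgdh was at 11.97 CPM with NT and 25.2 CPM with Satb1 siRNA, a ratio of 2.1 (1.8 to 2.46). Psat1 was at 37.1 and 48.1 CPM, a ratio of 1.3 (1.18 to 1.43). Ddit4 was also higher, at 18.4 and 27.2 CPM, a ratio of 1.48 (1.29 to 1.69). Phgdh exceeded 92.5% of genes in this ratio, Ddit4 85.2% and Psat1 79.5%.

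Atf4 had 359.8 CPM with NT and 345 CPM with Satb1 siRNA, a ratio of 0.957 (0.927 to 0.989). Ddit3 stood at 70.3 and 55.9 CPM (ratio 0.795, 0.736 to 0.86) and Trib3 at 10.98 and 9.81 CPM (ratio 0.894, 0.736 to 1.08). Chac1 had 23 and 24 counts, too few to show a difference (ratio 0.901, 0.485 to 1.66). Atf4 therefore lay within 0.002 log2 units of the median of all genes.

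Scaling by library size alone moved the median of all genes from -0.065 to 0.29, and with it the log2 ratios of Atf4, Ddit3, Trib3, Chac1 and Slc3a2 from below 0 to 0.29, 0.025, 0.19, 0.19 and 0.056. Relative to that median the values differed little between the scalings. With TMM scaling Slc7a11 lay -2.09 from it, Asns -0.54, Ddit3 -0.27 and Slc3a2 -0.23, while Psat1 lay 0.44, Ddit4 0.63 and Phgdh 1.13 above it.

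Markers of other cells moved in the low libraries with these genes. All 8 tumour and mesothelial markers were past 1.5-fold higher with Satb1 siRNA, and their summed level went from 189.9 to 671 CPM. Of all genes 14.2% were past that size higher and 11.6% lower (27.1% and 4.02% with library size alone). Of 5 neutrophil markers 4 were past 1.5-fold lower (283 to 88.1 CPM summed), as were 5 of 9 macrophage markers (6440 to 4058 CPM summed; 1 of 9 with library size alone). Of 10 dendritic cell markers 7 were past 1.5-fold higher (8 with library size alone), with a median log2 ratio of 0.86, while their sum was 8817 and 8562 CPM. Most of that sum was Cd74 (6810.5 and 6386 CPM, log2 ratio -0.093). In the high experiment the tumour and mesothelial sum was 864 to 966 CPM in all 4 libraries. There 6 of 8 markers were called higher, as were 32.8% of all genes. The part of these cells in the low values of the 10 genes was not tested.

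**Figure D3:**
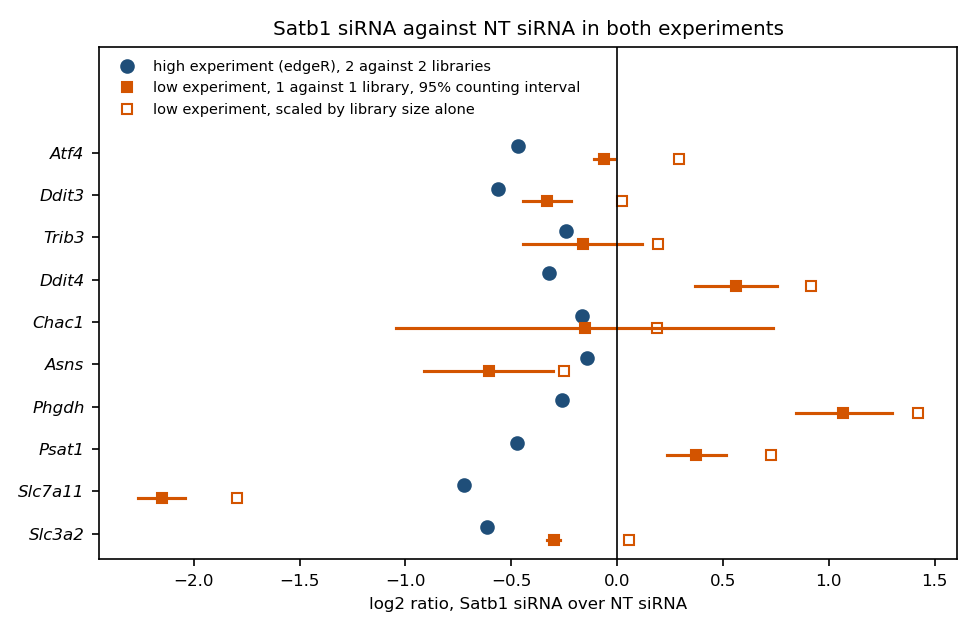
Log2 ratio of Satb1 over NT siRNA for each gene, with filled circles for the high experiment (edgeR), filled squares with 95% counting intervals for the low experiment after TMM scaling, and open squares for the low experiment with library size alone. Circles span -0.72 to -0.14, while filled squares run from -2.15 for Slc7a11 to 1.07 for Phgdh.

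The difference between the effects of the experiments was computed for each gene as an interaction in edgeR over all 6 libraries. The low libraries have no repeats and are assumed there to vary like the near-identical high ones, so its p-values set these libraries against near-technical noise and do not show that the siRNA acts differently. It was called for 8 of the 10 genes, 6 lower and 2 higher, against 39.7% of 20971 genes tested (21.8% lower and 17.9% higher). With library size alone 7 were lower and 1 higher, where 8339 of all 20971 genes were called lower and 1742 higher. Phgdh (log2 difference high minus low -1.34, SE 0.119, edgeR adjusted p = 1.50e-18), Ddit4 (-0.89, SE 0.111, edgeR adjusted p = 1.86e-11) and Psat1 (-0.85, SE 0.0754, edgeR adjusted p = 1.02e-18) fell in the high experiment and were higher in the low Satb1 siRNA library. Slc7a11 differed in the other sense, with the wider gap in the low experiment (1.43, SE 0.0623, edgeR adjusted p = 2.93e-39). Atf4 (-0.41), Slc3a2 (-0.32) and Ddit3 (-0.24) were also called, and Asns at 0.46 (edgeR adjusted p = 0.00999). The Asns call ended with library size alone (edgeR adjusted p = 0.422). DESeq2 called neither Asns (adjusted p = 0.0998) nor Ddit3 (adjusted p = 0.57). Trib3 (-0.085, edgeR adjusted p = 0.744, and called at 0.025 with library size alone) and Chac1 (-0.018, edgeR adjusted p = 1) were not called.

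With NT siRNA alone, the low library differed from the high libraries in 5 of the 10 genes by more than 1.5-fold, 3 lower and 2 higher, where 29.4% and 37.6% of 13342 genes, 66.9% in all, were past that size. With library size alone 6 were lower and 1 higher, where 46.9% of all those genes were lower and 22.3% higher. These NT libraries are also the controls of the comparisons above. Slc3a2, with the CPM values given above, had a log2 difference of 1.69, low over high, and Ddit3 was 0.76 higher. Asns (-1.38), Chac1 (-1.33) and Slc7a11 (-1.16) were lower in the low NT library. Per length, the heavy chain exceeded the cystine carrier's light chain in all NT libraries, with 133 and 134 against 56.8 and 57.2 FPKM in the high and 320.4 against 14.8 FPKM in the low experiment. With library size alone the median of all genes moved from 0.14 to -0.49, and Atf4 (0.25), Ddit4 (0.56) and Ddit3 went to -0.38, -0.068 and 0.13, so that Ddit3 was no longer past 1.5-fold. The experiment and the library cannot be told apart here.

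Other genes of the response, listed from textbook knowledge but with earlier results of these data known, were compared with the 10. Of 29 further ATF4 targets tested in the high experiment, 18 were called lower, 4 were called higher and 7 were not called. Of all genes tested 33.2% were called lower and 32.8% higher. Their median log2 fold change was -0.22. Regulators and effectors made up most of the falls, with 11 of 14 called lower and 1 higher. Ppp1r15a, which encodes the phosphatase subunit GADD34 that ends the response, fell from 85.7 and 84.9 to 42.5 and 42.1 CPM (log2 fold change -1.01). The endoplasmic reticulum oxidase gene Ero1l fell from 569.7 and 569.1 to 396 and 396 CPM (-0.52). Of 9 synthesis genes 6 were called lower and 2 higher. The alanine aminotransferase gene Gpt2 fell by 0.44 on the log2 scale and the proline synthesis gene Aldh18a1 by 0.39. The 6 other transport genes had a median of -0.049, with 1 called lower (the glutamine carrier gene Slc38a2, -0.065) and 1 higher (the arginine carrier gene Slc7a1, 0.13). Slc7a11 and Slc3a2 thus lay below all 6 of these carriers, whose lowest value was -0.165.

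Among 20 cytosolic tRNA synthetase genes 17 fell and 1 rose, around a median of -0.13. Of 13 genes of eIF2 signalling 8 fell and 1 rose, around a median of -0.10. By the same test 33.2% of all genes fell and 32.8% rose, around a median of 0.011. The alanyl synthetase gene Aars fell by 0.36 and the seryl synthetase gene Sars by 0.21 on the log2 scale. The kinases that start the response were close to level. Eif2ak1, which answers to haem, stood at 0.038 and was not called, and Eif2ak3, the kinase PERK of the endoplasmic reticulum, was at -0.043 and not called (edgeR adjusted p = 0.137). Eif2ak4, the amino acid sensor GCN2, was at 0.002 (edgeR adjusted p = 0.964). Eif2ak2, the kinase PKR that binds double-stranded RNA, was called lower at -0.090.

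Genes of the NRF2 response, which shares Slc7a11 with ATF4, were mostly lower in the low experiment. Of 11 genes 10 were past 1.5-fold lower and 1, the malic enzyme gene Me1, past it higher, with a median log2 ratio of -1.20. With library size alone 9 were lower and 1 higher. Of all genes 11.6% were past 1.5-fold lower and 14.2% higher (4.02% and 27.1% with library size alone). Txnrd1, the gene of a thioredoxin reductase, was at 855 CPM with NT and 302 CPM with Satb1 siRNA, and the sulfiredoxin gene Srxn1 at 639 and 169.99 CPM. In the high experiment 9 of the 11 fell and 1 rose, around a median of -0.34, where 33.2% of all genes fell and 32.8% rose. The part of NRF2 in the Slc7a11 values was not tested. ATF4 targets other than the 10 were divided in the low experiment, with 9 of 13 regulators past 1.5-fold lower, none of 6 synthesis genes past it and 1 of 5 transport genes past it higher. With library size alone those counts were 4 lower, 1 higher and 4 higher. Glucocorticoid targets were listed because that hormone also drives Ddit4. In the low experiment 6 of 6 were below 0, where the median of all genes was -0.065. With library size alone 4 of 6 were, at a median of all genes of 0.289. Ddit4 was above 0 in both scalings. A part of the hormone in these values was not tested. In the high experiment 3 of these 6 were called lower, Per1 by -0.54, and 2 higher, Klf9 by 0.26.

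**Figure D4:**
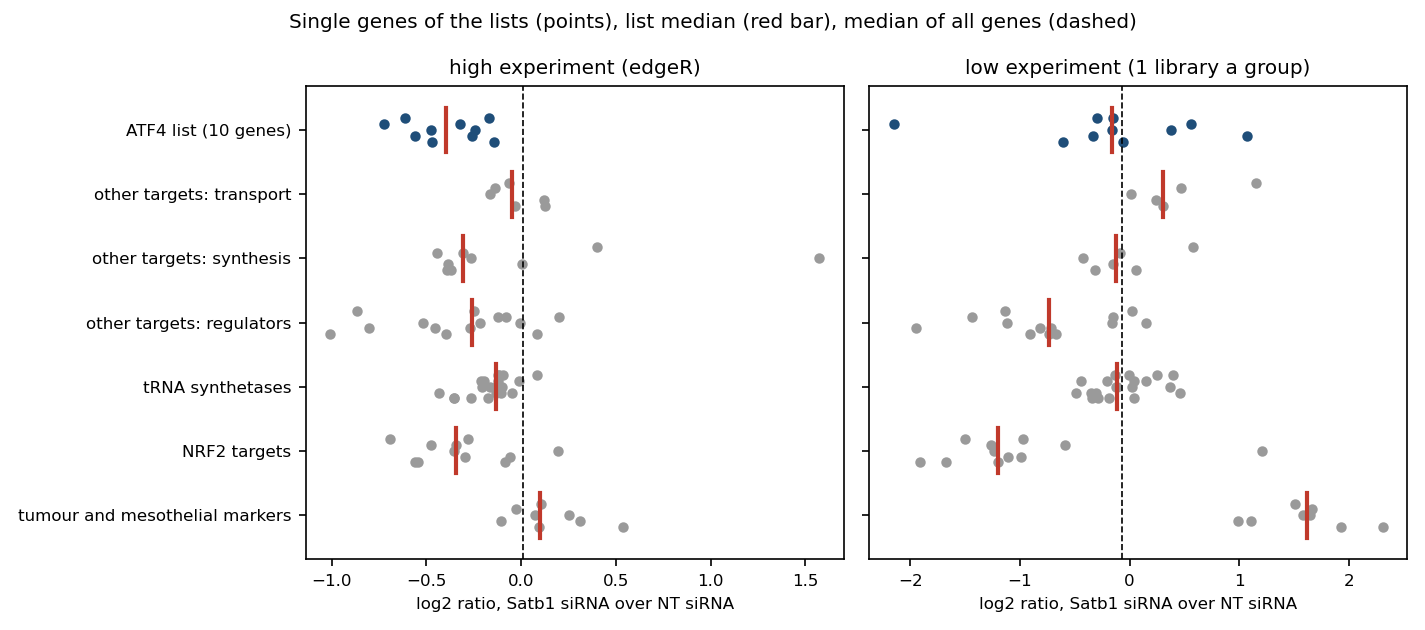
Log2 ratio of Satb1 over NT siRNA for single genes of each list (points) with the list median (red bar) and the median of all genes (dashed line), for the high experiment (left) and the low experiment (right, genes at a mean log2 CPM of at least 0). The 10 genes lie wholly below 0 on the left, and on the right they spread from -2.15 to 1.07. The medians on the right are -1.20 for NRF2 targets and 1.61 for tumour and mesothelial markers.

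The 10 genes did not share a single pattern over the 4 groups. Distances between centred log2 CPM over the 4 group means were smallest for Atf4 and Psat1 (0.364), Chac1 and Asns (0.432) and Atf4 and Ddit3 (0.468), where the median distance from Atf4 to 10700 genes was 1.03. Atf4 lay 2.11 from Asns. The 5 genes nearest to Atf4 by this distance were mKIAA0194 (0.0125), Ckap4 (0.052), Nup37 (0.0523), Ncaph2 (0.0576) and Mea1 (0.0591). The nearest to Asns were D5Ertd605e (0.0984), Calcrl (0.147), Lekr1 (0.149), Cntd1 (0.158) and mKIAA1376 (0.175). Each distance rests on 4 values per gene.

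Slc7a11 also differed in the ratio of its count to its FPKM, which gives the transcript length that the authors' estimate implies. That length was 7.29 and 7.31 kb in the high NT libraries and 6.07 and 6.07 kb in the high Satb1 siRNA libraries. In the low experiment it was 8.09 kb with NT and 5.3 kb with Satb1 siRNA. It was shorter with Satb1 siRNA in both experiments, and its largest value was 1.53 times its smallest, more than for 95.1% of 9555 genes with at least 100 counts and an FPKM of 1 or more in every library. Slc3a2 varied 1.17-fold and the 8 other genes at most 1.04-fold. The table lists 2 transcripts for Slc7a11 and 3 for Slc3a2. The low Slc7a11 ratio was -2.15 from counts, -1.80 from counts with library size alone and -1.17 on the log2(FPKM + 0.1) scale.

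**Figure D5:**
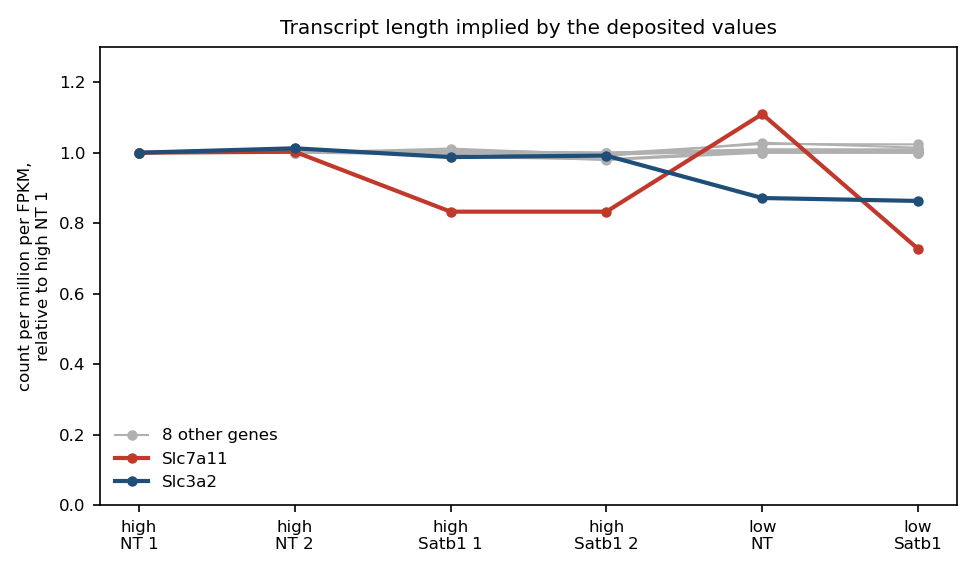
Transcript length implied by the count and FPKM of each gene in each library, relative to the first high NT library, with lines joining the values of a gene. Slc7a11 falls from 7.29 to 6.07 kb in the high and from 8.09 to 5.3 kb in the low experiment with Satb1 siRNA, while the 8 grey genes stay level.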

How the data were processed

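Expression was read from 1 deposited table with an FPKM value and a count per gene and library, per the file headers. The authors' FPKM values are relative to transcript length and library size. The submitters' processing notes list RSEM 1.2.12, DESeq2 and build mm9 with no role, so the deposited counts were taken as estimated counts; they were whole numbers, and rounding changed nothing. For the aligner, filters and strand handling the sources used here give nothing, and reads of Phgdh may be shared with the pseudogene Phgdh-ps1.

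The high experiment (4 libraries) was fitted with edgeR 4.0.16 in R 4.3.3 (robust quasi-likelihood F-test, TMM, filterByExpr, two-sided, Benjamini-Hochberg over all genes, threshold 0.05), after tests on simulated data. The interaction used the same test over all 6 libraries. Other comparisons are log2 ratios of CPM (prior count 2), with TMM over 4 libraries for the high experiment and over 6 otherwise. Exact 95% conditional binomial intervals were computed for the ratios over 6 libraries. A count of 0 allows up to 3 counts (0.0384 to 0.157 CPM); such limits, like the intervals, hold counting error alone. Alternatives were DESeq2 1.42.0, other scalings, filters and prior counts, FPKM, a replicate block and libraries left out.

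The members and lists were chosen with earlier results of these data known. Named are the 10 members, Satb1, the eIF2 kinases and the 2 genes of smallest p per companion list or role (mean log2 CPM of at least 1). The 5 genes nearest to Atf4 and to Asns are also named. Me1, Psph, Flt3, Cd74 and H2-Ab1 were named after their values were seen. Of 143 list entries 139 matched the file, 2 by an older symbol. Slc7a5, Sesn2, Tsc22d3 and Ly6g were not analysed here.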

Additional observations from a re-analysis of the deposited data

Results flagged for a closer look

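The ratio of Satb1 to NT siRNA libraries differed between the experiments by an interaction in edgeR for 8 genes, against the near-technical spread of the high repeats. The log2 difference, high minus low, was -0.41 for Atf4, -0.24 for Ddit3, -0.89 for Ddit4, 0.46 for Asns, -1.34 for Phgdh, -0.85 for Psat1, 1.43 for Slc7a11 and -0.32 for Slc3a2. For Phgdh, Psat1 and Ddit4 the sign of the effect was opposite in the experiments with TMM scaling and with library size alone. The low experiment has 1 library per siRNA, so its library and its treatment cannot be told apart, and a difference in the effect of the siRNA is not shown.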

How the results depend on the processing

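In the high experiment 9 genes were called with library size alone, without a filter, with a stricter filter, in DESeq2, with 4 group means over 6 libraries and with the replicate block, and 9 to 10 with a library left out. Replicate numbers gave no pairing of samples (correlation of same-numbered deviations -0.0295). With summed repeats and the experiment as a term, edgeR called 0 and DESeq2 1, and the values reversed to 0.11 and 0.11 for Ddit4 and to 0.39 and 0.39 for Phgdh; that fit averages both experiments. Chac1 ran from -0.35 to 0.017 with a library left out. Past 1.5-fold in the high experiment were 2 genes, 1 with library size alone, 0 in FPKM and 2 to 3 with a library left out. In the calls with a library left out, the lone library is assumed to vary like the other group. In the low experiment 3 were past it (3 to 4 under the alternatives), and between controls 5 (5 to 7, and 5 to 6 with a library left out). The difference between experiments was called for 8 genes, for 6 in DESeq2 and for 8 with any high library left out. Without a call, it reversed for Trib3 (0.010) and Chac1 (0.072) in DESeq2, and for Chac1 it ran from -0.20 to 0.17 with a library left out. The promoter count was 4 with a free base and 2 without. Depth limits Chac1 most, at 23 and 24 counts in the low experiment.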
